A study of Mus musculus with 20 samples.

Results

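The circadian clock genes Arntl, Npas2, Per1, Per2, Per3, Nr1d1, Nr1d2, Dbp, Tef and Ciart were followed in mouse heart RNA-seq. They were the 10 rows, of 29339 genes counted, whose gene symbol was on this list, and all 10 passed the filter on low counts in every comparison. The hearts came from C57BL/6 mice aged 8 weeks, labelled wild type (WT) or knockout for Tecrl (KO), a gene of the endoplasmic reticulum, and there were 20 libraries: 5 labelled male WT, 5 male KO, 3 female WT and 7 female KO. The library names formed 2 sets. The S-named set (S1 to S12) held 3 libraries of each group. The WT/TKO-named set held WT1 and WT2 (male WT), TKO5 and TKO6 (male KO) and TKO1 to TKO4 (female KO), and no female WT library. Hearts were frozen after removal, the chambers taken and the KO allele were not described, and the mice lived under alternating dark and light. The time of day at which each heart was taken, on which clock transcripts depend, is not given in the sources used here.

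The clock of a heart cell is a transcriptional feedback loop that runs for about a day. The protein of Arntl (also called BMAL1) pairs with CLOCK or with its relative NPAS2, binds E-boxes and turns on Per1, Per2, Per3, Nr1d1, Nr1d2, Dbp, Tef and Ciart. PER proteins, with cryptochromes, block that pair, and the nuclear receptors encoded by Nr1d1 and Nr1d2 (REV-ERBα and REV-ERBβ) repress Arntl and Npas2 through sites called ROREs. Arntl and Npas2 transcripts therefore peak at the opposite time of day from the others, and among the targets Nr1d1 peaks before Dbp and Dbp before Per2. DBP and TEF are PAR bZIP factors that act on D-boxes, and Ciart (CHRONO) is a further repressor of the Arntl pair. In the heart this clock is known to time metabolism and the expression of ion channels.

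Promoter windows show where these sequence words lie. RefSeq windows on GRCm38.p6, running from 250 bases before to 50 bases after a transcript start, were found for 9 of the 10 genes. Each window was searched on both strands for the E-box CACGTG, the E-box variant CACGTT, the D-box as TTATGTAA or TTACGTAA and the RORE as TAGGTCA or TGGGTCA. Of 32851 windows of the same length in the genome, 7.15% held the E-box, 4.68% the variant, 1.06% the D-box and 6.45% the RORE. One window for each word is printed here, with the matches in capitals. The windows are Nr1d1 at chr11:98775328-98775627 (minus strand, 1 variant E-box, read there as AACGTG), a second Arntl start at chr7:113207261-113207560 (plus strand, 1 RORE), Ciart at chr3:95882179-95882478 (minus strand, 3 E-boxes) and Per3 at chr4:151044616-151044915 (minus strand, 2 D-boxes).
Nr1d1: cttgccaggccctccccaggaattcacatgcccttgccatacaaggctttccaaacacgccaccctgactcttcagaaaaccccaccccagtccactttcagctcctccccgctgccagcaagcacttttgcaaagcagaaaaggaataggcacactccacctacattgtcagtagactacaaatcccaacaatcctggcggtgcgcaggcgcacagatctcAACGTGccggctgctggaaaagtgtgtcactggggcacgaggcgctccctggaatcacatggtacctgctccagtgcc
Arntl: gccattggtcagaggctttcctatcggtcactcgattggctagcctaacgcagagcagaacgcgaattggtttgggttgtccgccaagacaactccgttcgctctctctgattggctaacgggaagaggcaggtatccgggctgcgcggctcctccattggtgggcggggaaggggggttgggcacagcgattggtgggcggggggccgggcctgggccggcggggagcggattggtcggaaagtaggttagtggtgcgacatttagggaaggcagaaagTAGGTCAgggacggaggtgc
Ciart: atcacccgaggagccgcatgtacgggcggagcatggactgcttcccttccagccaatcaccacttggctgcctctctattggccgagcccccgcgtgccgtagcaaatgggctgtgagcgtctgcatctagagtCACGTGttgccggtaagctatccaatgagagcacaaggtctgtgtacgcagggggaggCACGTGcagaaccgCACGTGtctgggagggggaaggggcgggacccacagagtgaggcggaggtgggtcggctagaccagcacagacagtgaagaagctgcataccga
Per3: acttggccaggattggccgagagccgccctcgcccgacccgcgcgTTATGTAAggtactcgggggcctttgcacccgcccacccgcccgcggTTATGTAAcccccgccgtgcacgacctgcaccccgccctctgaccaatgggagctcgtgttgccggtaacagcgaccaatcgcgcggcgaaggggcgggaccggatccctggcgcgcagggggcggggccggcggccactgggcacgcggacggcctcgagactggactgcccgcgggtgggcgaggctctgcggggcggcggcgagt
A single E-box was also found in 1 of 2 Per1 windows and in both Tef windows, while the windows of Npas2, Nr1d2 and Dbp held none of the words. A match is a description of the letters only, and a window without one says nothing about binding elsewhere.

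All 10 genes are protein coding, and positions are those of GENCODE on GRCm38. Arntl is on chromosome 7 (113207465 to 113314126, plus strand) and so is Dbp (45705088 to 45710203, plus strand). Nr1d1 (98767932 to 98775333, minus strand) and Per1 (69095217 to 69109960, plus strand) are on chromosome 11. Npas2 (39193731 to 39363236, plus strand) and Per2 (91415982 to 91459324, minus strand) are on chromosome 1. The others are Per3 on chromosome 4 (151003652 to 151044665, minus strand), Nr1d2 on chromosome 14 (18204054 to 18239127, minus strand), Tef on chromosome 15 (81802421 to 81826863, plus strand) and Ciart on chromosome 3 (95878503 to 95882251, minus strand). Exons of Nr1d1 share 263 bases with Thra on the other strand, and those of Dbp share 539 bases with Sphk2. Tef shares 193 bases with Gm17597 and Arntl 33 bases with Gm45355. The counting strand is not given in the sources used here, so reads of those stretches cannot be assigned with certainty.

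Several libraries stood apart or went against their labels. Total counts ran from 12540002 to 20038593 per library. Tecrl itself was not lower in the libraries labelled KO, at 26.9 to 41.3 FPKM (fragments scaled to transcript length and library size) against 24.5 to 46.5 in those labelled WT, so WT and KO denote labels only. S7, S8 and S9, labelled male, had Xist and no reads of Y-linked genes, and S4, S5 and S6, labelled female, had Y-linked genes and almost no Xist. Within the S-named set, Xist was thus present in the 6 WT libraries and Y-linked genes in the 6 KO libraries, so that genotype label and sex-linked expression cannot be told apart there. Cardiomyocyte markers (7 genes) summed to 35391 CPM (counts scaled to library size) or more in every library. Atrial markers were high in S7, S9, S11 and S12, where Myl7 ran from 684 to 2333 CPM against at most 184 in the others, and adipocyte markers were high in S7. These are bulk samples, in which fewer cells of a type and less RNA per cell cannot be told apart. Nothing in the labels says more of the libraries of a group than that they are separate samples. The methods of the study describe fewer mice in a group than there are libraries here, in every group but female WT, and which libraries share a mouse, if any do, is not given in the sources used here. The p-values therefore measure the spread between libraries, which may be in part technical.

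Every library held transcripts of all 10 genes. Per length of transcript, in FPKM over the 20 libraries, the order of the mean levels was Tef at 26.4 ± 5.90 (SD), Per1 at 24.8 ± 6.4 and Nr1d2 at 22.0 ± 4.14. Next came Per2 at 10.8 ± 3.83, Nr1d1 at 10.5 ± 6.21, Dbp at 7.39 ± 2.43 and Ciart at 5.01 ± 1.75. Per3 at 2.40 ± 0.917, Arntl at 1.24 ± 0.410 and Npas2 at 0.479 ± 0.215 were lowest. Tef, Per1 and Nr1d2 differed from their neighbours among these 3 by less than either SD, and so did Per2 from Nr1d1. The steps from Nr1d2 to Per2, from Ciart to Per3, from Per3 to Arntl and from Arntl to Npas2 were larger than either SD. The activators were the least abundant, and Npas2 rested on only 10 to 63 reads a library.

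**Figure D1:**
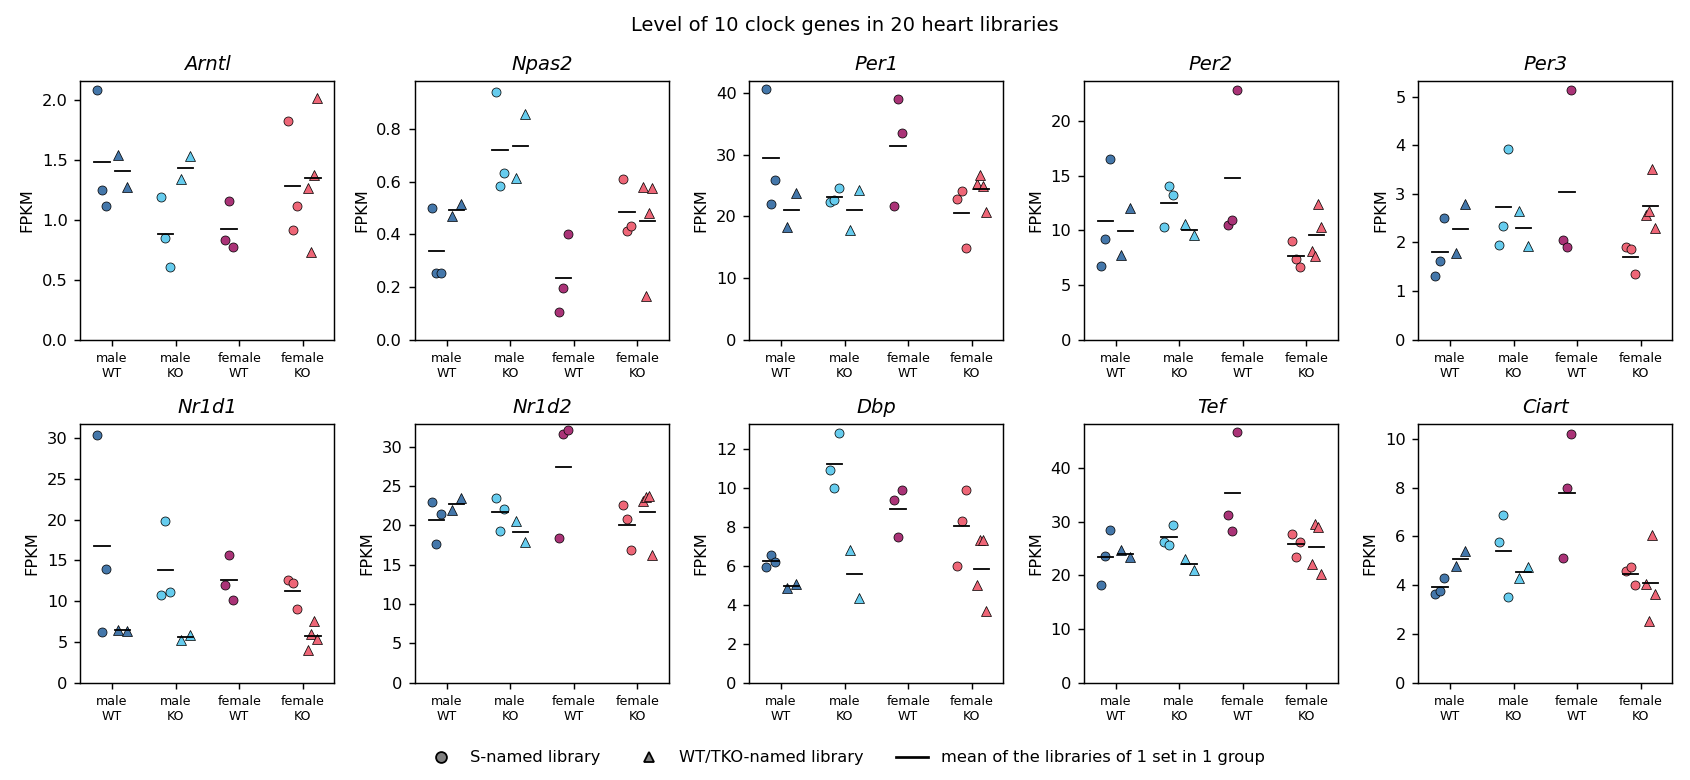
FPKM of each of the 10 clock genes (one panel each, vertical axis from 0) in every library, by labelled group; circles are S-named and triangles WT/TKO-named libraries, and bars are the mean of 1 set in 1 group. Nr1d1 lay between 4.04 and 7.57 FPKM in the 8 WT/TKO-named libraries and at 8.99 or above in 11 of the 12 S-named ones.

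The genes varied unequally between hearts. Among 11778 genes with a mean log2 CPM of at least 1, the median SD over the 20 libraries was 0.30 on the log2 scale. Npas2 (SD 0.74) and Nr1d1 (SD 0.68) varied most, above 95.8% and 94.5% of those genes. Arntl (0.50), Per3 (0.47), Ciart (0.46), Dbp (0.46) and Per2 (0.42) varied more than 75.4% to 84.2% of them. Per1 (0.33), Tef (0.29) and Nr1d2 (0.28) were near the median gene. From the lowest to the highest library, FPKM differed 9.04-fold for Npas2, 7.52-fold for Nr1d1, 4.03-fold for Ciart and 1.98-fold for Nr1d2. Within each group and library set, as the root of the mean variance, the SDs of Npas2 and Nr1d1 were 0.52 and 0.50. For all 10 genes this SD was below the SD over all libraries.

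**Figure D2:**
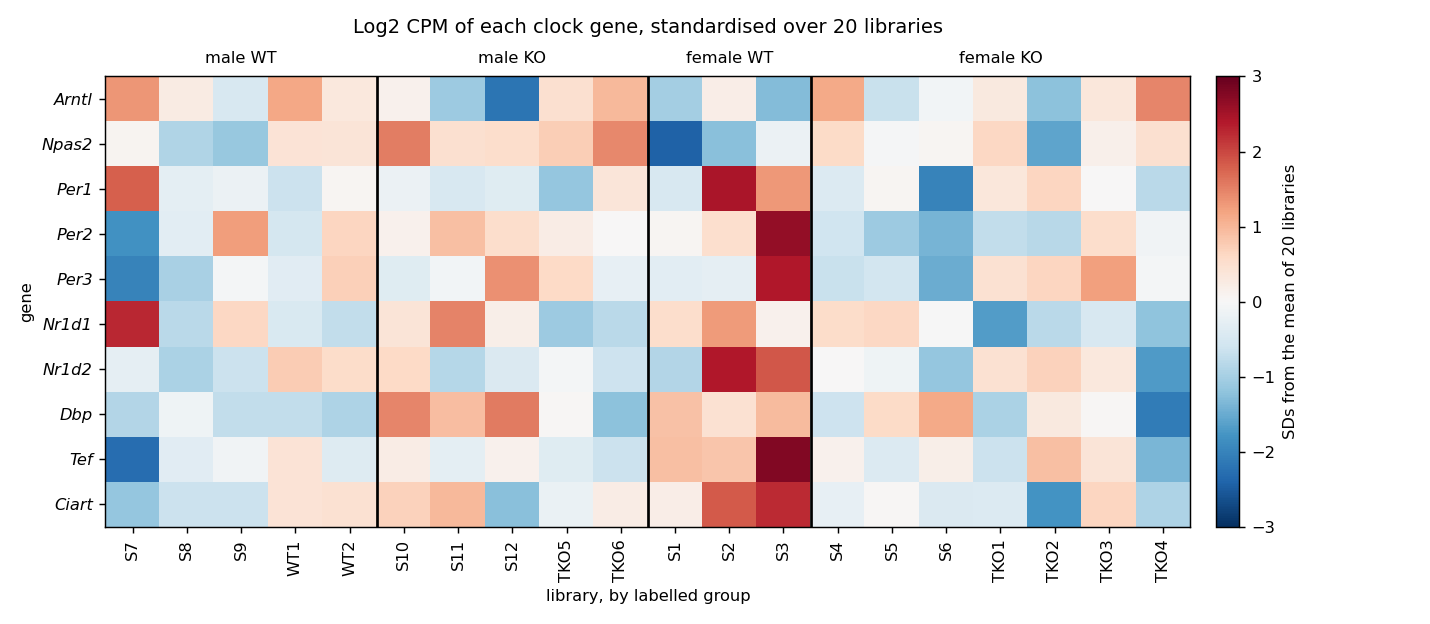
Log2 CPM of the 10 clock genes (rows) in 20 libraries (columns, by labelled group), each gene centred on its mean and divided by its SD over the libraries; red is above the mean and blue below it. S3 was above the mean for 8 genes and below it for Arntl and Npas2.

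The activators and their targets, which peak at opposite times of day, were first set against each other in each heart. For each library, the mean standardised level of Arntl and Npas2 was subtracted from that of the other 8 genes; this is a description with no test. The difference was highest in S3 (2.52), S1 (1.84) and S2 (1.72), the 3 libraries labelled female WT. It was lowest in TKO4 (-2.0), TKO6 (-1.58) and S7 (-1.25). In the libraries labelled female KO it ran from -2.0 to 1.38, with TKO2 at the upper end, and in those labelled male WT from -1.25 to 0.74 and male KO from -1.58 to 1.04. Those 3 groups overlapped, and the female WT libraries lay above every other library. In S1, however, the 8 targets had a mean of only 0.11, while Npas2, on 10 reads, was at -2.44. In S2 Arntl was above its mean, at 0.19, and Npas2, on 16 reads, at -1.25. In TKO2 the 8 targets had a mean of -0.03. The order thus leans in part on Npas2, the gene with the fewest reads.

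Arntl, the activator, and Dbp, one of its targets, ran in opposite directions. In the libraries labelled male WT, Arntl was at 1.54 FPKM in WT1, 1.27 in WT2, 2.08 in S7, 1.25 in S8 and 1.12 in S9, and Dbp was at 4.86, 5.08, 5.93, 6.58 and 6.22 FPKM in the same order. In those labelled male KO, Arntl was at 1.19 in S10, 0.845 in S11, 0.605 in S12, 1.34 in TKO5 and 1.53 in TKO6, and Dbp was at 10.9, 9.98, 12.8, 6.82 and 4.36. S12 had the lowest Arntl and the highest Dbp of all 20 libraries, 21.2 times as much Dbp as Arntl by FPKM. At the other end, TKO4 held 2.01 FPKM of Arntl and 3.68 of Dbp, a ratio of 1.83 and the lowest Dbp level measured. Over the 20 libraries Pearson's r of log2 CPM was -0.753 (Spearman's rho -0.774, permutation test, adjusted p = 0.00495 over 45 pairs for r and 0.00675 for rho). It was -0.681 without the 2 libraries farthest from the median of Arntl.

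**Figure D3:**
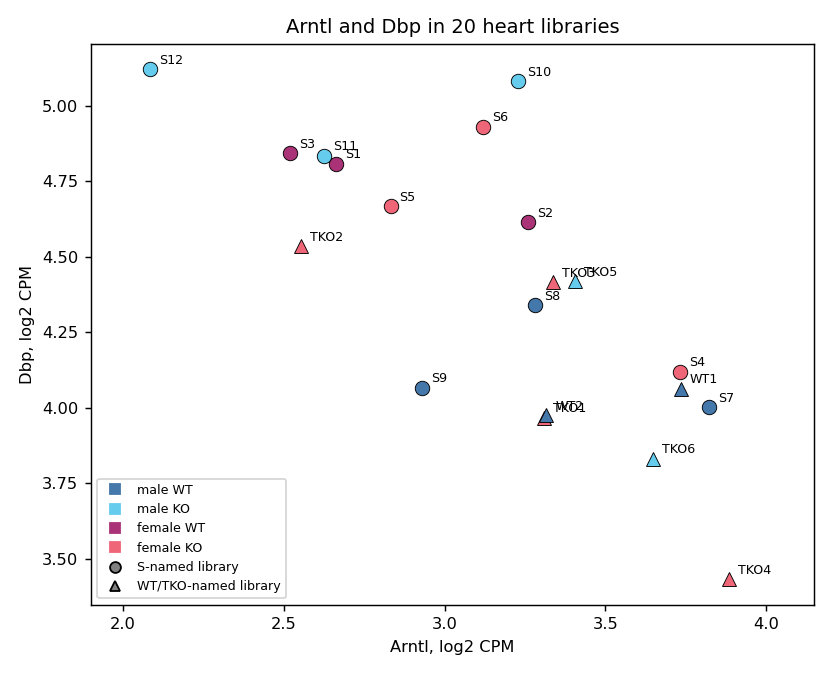
Log2 CPM of Dbp (vertical) against log2 CPM of Arntl (horizontal) in 20 heart libraries, coloured by labelled group, with circles for S-named and triangles for WT/TKO-named libraries. Dbp fell from S12 at the upper left to TKO4 at the lower right, and both sets of libraries are spread along both axes.

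The correlation was also taken within each set. In the 12 S-named libraries r of Arntl and Dbp was -0.684 (permutation test, p = 0.0150, adjusted p = 0.0845), and in the 8 WT/TKO-named ones it was -0.739 (exact permutation test, p = 0.0351, adjusted p = 0.385). Neither passed adjustment within a set. Without the 2 farthest libraries r was -0.452 in the S-named set and -0.342 in the WT/TKO-named set, so the relation within a set was smaller without its extreme libraries. Centred within group and set it was -0.615 (permutation test, adjusted p = 0.0345). That permutation made no allowance for the group and set means removed, so its p may be too small.

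Of the 45 pairs of clock genes, 10 had an adjusted p under 0.05 for r over 20 libraries, 8 of them positive. Of these pairs only Arntl with Dbp also had an adjusted p under 0.05 for rho. The other negative one was Arntl with Tef (r -0.555, permutation test, adjusted p = 0.0473, and -0.539 without the 2 farthest libraries). Centred within group and set its r was -0.530, and this pair did not pass there or in either set alone. Per2 and Per3, the period genes, rose and fell together (r 0.752, permutation test, adjusted p = 0.00495; 0.481 without the 2 farthest), with r 0.877 in the S-named libraries (permutation test, adjusted p = 0.00675) and 0.810 centred within group and set (permutation test, adjusted p = 0.00045). Per1 went with Nr1d2 (r 0.676, permutation test, adjusted p = 0.0216; 0.650 without the 2 farthest) and Dbp with Tef (r 0.561, permutation test, adjusted p = 0.0473; 0.524 without them). Over the 20 libraries the positive r of Tef with Per2 and Per3 rested on 2 libraries, since it came to -0.011 and 0.020 without them. Among the S-named libraries alone Tef and Per3 were also positively related, with S3 highest and S7 lowest for both. Nr1d2 with Ciart fell from 0.588 to 0.169, Nr1d2 with Tef from 0.570 to 0.301 and Per2 with Ciart from 0.613 to 0.342. Arntl and Npas2, which share a phase, had r 0.387 (permutation test, adjusted p = 0.245), and centred within group and set r was 0.619 (permutation test, adjusted p = 0.0345). Arntl and Per3 had r -0.492 (permutation test, adjusted p = 0.100), which was -0.599 centred (permutation test, adjusted p = 0.0381) and -0.753 in the S-named libraries (permutation test, adjusted p = 0.0492). All p-values of centred values carry the limit given above and may be too small. Nr1d1 had no pair that passed, its highest r being 0.387 with Per1. In the WT/TKO-named libraries alone 0 of 45 pairs passed by the exact permutation test, although r reached 0.837.

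Genes beyond the clock list tracked Arntl and Dbp as closely. With Arntl, the highest r over the 20 libraries among 11778 genes were those of Gna13 (0.788), Rbm15b, Rab30, Hnrnpa3, Sdcbp, Stat3, Mapre1 and Dnajc3 (0.696), and the lowest were those of Usp20 (-0.831), Adamtsl5, Tep1 and Dbp. Clock, the partner of Arntl, was at 0.626 and Nfil3, a repressor at D-boxes, at 0.633. With Dbp, the highest were Slc35c2 (0.766), Parp3, Llgl2, Rnpepl1, Abhd11, Tfpt, Sap30l and Usp20 (0.714), and the lowest were Tuba1a (-0.777), Arntl, Heg1 and Map4k4. These values describe libraries that share depth, group and set, and carry no test.

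The comparison the study was designed for, KO against WT, was made first in the 10 libraries labelled male, with the library set as a covariate. No clock gene passed at an adjusted p under 0.05 in edgeR's quasi-likelihood test, where 0% of the 14481 genes tested were called (4.75% had an unadjusted p under 0.05, and DESeq2 called 12). Of the 10 clock genes 2 had an unadjusted p under 0.05, and DESeq2 and limma called 0. At the thresholds of the study, an unadjusted p under 0.05 and a log2 fold change of 0.58 or more in size, Npas2 alone passed, and 0.905% of all genes passed as higher. Of the clock genes 6 were above 0 and 4 below it, with a median log2 fold change of 0.11 against -0.01 over all genes tested.

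Npas2, a partner of Arntl, was at 0.471 FPKM in WT1, 0.514 in WT2, 0.50 in S7, 0.253 in S8 and 0.254 in S9. In the libraries labelled male KO it was at 0.941 in S10, 0.584 in S11, 0.633 in S12, 0.616 in TKO5 and 0.857 in TKO6. All 5 KO libraries lay above all 5 WT libraries, as they did in CPM for 0.387% of all genes tested. The log2 fold change was 0.90 (SE 0.278, adjusted p = 0.882 by edgeR's quasi-likelihood test). It was 0.56 without S7, S8 and S9, the libraries that went against their sex label. As these are all the S-named male WT libraries, that value compares WT1 and WT2 with TKO5 and TKO6 alone. The log2 fold change of Npas2 was 0.98 without the 4 libraries high in Myl7. Dbp had a log2 fold change of 0.58 (SE 0.174, adjusted p = 0.882), just under the threshold of size. Its excess lay in S10 to S12, since TKO5 and TKO6 overlapped with WT1 and WT2, and the value was 0.14 without S7, S8 and S9 and 0.35 without the libraries high in Myl7. Arntl had the lowest value at -0.42 (adjusted p = 0.882), which became -0.23 without S7, -0.01 without S7, S8 and S9 and -0.02 without the libraries high in Myl7. Of the adipocyte markers 4 of 4 tested passed the thresholds of the study as lower in KO, with a median log2 fold change of -4.01, and of the atrial markers 0 did, with a median of -0.11. The part of sex-linked, atrial and adipocyte transcripts in these values was not tested. The sign for Nr1d1 rested on S7, where it stood at 30.4 FPKM, and the log2 fold change went from -0.23 to 0.17 without that library.

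Among the 10 libraries labelled female 8 of the 10 clock genes had a log2 fold change of KO against WT below 0, but none passed adjustment. With set as covariate the contrast comes from the S-named libraries, since female WT libraries occur in that set alone. In edgeR's quasi-likelihood test 0.0551% of 14511 genes had an adjusted p under 0.05, that is 8 genes, of which 5 were Xist and the Y-linked Ddx3y, Eif2s3y, Uty and Kdm5d. Of the clock genes 0 passed, 5 had an unadjusted p under 0.05, as did 17.9% of all genes, DESeq2 called 1 (Per2), beside 2.64% of all genes, and limma called 0. At the thresholds of the study 4 of 10, namely Per1, Per2, Per3 and Ciart, passed as lower, against 7.15% of all genes. The median log2 fold change was -0.48 against -0.02 over all genes.

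Per2, a repressor of the Arntl pair, was at 10.5 FPKM in S1, 10.9 in S2 and 22.8 in S3, all labelled female WT. It was at 8.99 in S4, 7.39 in S5 and 6.65 in S6, labelled female KO, and from 7.67 to 12.4 in TKO1 to TKO4. Within the S-named set the groups did not overlap, as was so in CPM, with KO lower, for 8.6% of all genes tested, and S3 held more than S1 and S2 together. The log2 fold change was -0.96 (SE 0.254, adjusted p = 0.146 by edgeR). Per3 followed, with 2.05, 1.91 and 5.13 FPKM in S1 to S3 against 1.9, 1.87 and 1.35 in S4 to S6 and 2.31 to 3.51 in TKO1 to TKO4. Its log2 fold change of -0.83 (SE 0.304, adjusted p = 0.210) shrank to -0.28 without S3.

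Ciart, the repressor with the 3 E-boxes printed above, was at 5.12, 8.00 and 10.2 FPKM in S1 to S3 and at 4.58, 4.74 and 4.02 in S4 to S6. Its log2 fold change was -0.83 (SE 0.284, adjusted p = 0.200), and TKO1 to TKO4 ran from 2.54 to 6.06 FPKM. Per1 was at 21.7, 39.0 and 33.5 FPKM in S1 to S3 and at 22.8, 24.1 and 14.8 in S4 to S6, so that S1 overlapped with the KO libraries (log2 fold change -0.66, SE 0.240, adjusted p = 0.210). In the output factor Tef the value was -0.48 (SE 0.194, adjusted p = 0.241). In CPM within the S-named set Tef did not overlap, with KO lower, as held for 8.6% of all genes tested. Npas2 and Arntl were the 2 genes above 0, at 1.06 (SE 0.494, adjusted p = 0.281) and 0.43 (SE 0.331, adjusted p = 0.522). Npas2 did not overlap within that set, at 2.01 CPM or more in KO against at most 1.87 in WT, and Arntl did. The share of all genes separated with KO higher is not given here. Nr1d2 was at -0.49 (adjusted p = 0.290), Nr1d1 at -0.22 (adjusted p = 0.655) and Dbp at -0.16 (adjusted p = 0.781).

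In this group S1 was the WT library nearest to S4 to S6 for Per1, Per2 and Ciart. Without S1, 16.8% of 14358 genes had an adjusted p under 0.05 in the same test, against 8 genes with S1. Of the clock genes 5 were among them, Per2 at -1.17 (adjusted p = 0.00731), Per1 at -0.89 (0.0121), Ciart at -1.08 (0.0137), Nr1d2 at -0.73 (0.0188) and Per3 at -1.07 (0.0265). With any other of the 10 libraries left out, 0 passed in edgeR, and without S3 the value of Per2 was -0.55. Other values also leaned on 1 library: Per1 was at -0.40 and Nr1d2 at -0.30 without S2, Tef at -0.27 without S3 and Arntl at 0.12 without S4. Npas2 was at 0.67 without S1 and 1.62 without S3, and the log2 fold changes of Nr1d1 (0.04 without S2) and Dbp (0.03 without S4) changed sign. Atrial markers summed to 13.6 to 42.1 CPM in S1 to S3 and 15.3 to 354 in S4 to S6, and 3 of 4 tested passed the thresholds of the study as higher in KO (median log2 fold change 4.46). Adipocyte markers did not overlap, at 0.957 to 6.96 CPM in S1 to S3 and 7.61 to 17.4 in S4 to S6, and 2 of 3 tested passed the thresholds of the study as higher in KO. Of 6 temperature-responsive genes 2 also passed those thresholds as higher in KO (median log2 fold change 0.45), beside 413 of 14511 genes. The part of these markers and genes in the differences was not tested. Sex-linked expression cannot be told apart from the genotype label here, since S1 to S3 had Xist and S4 to S6 Y-linked genes.

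**Figure D4:**
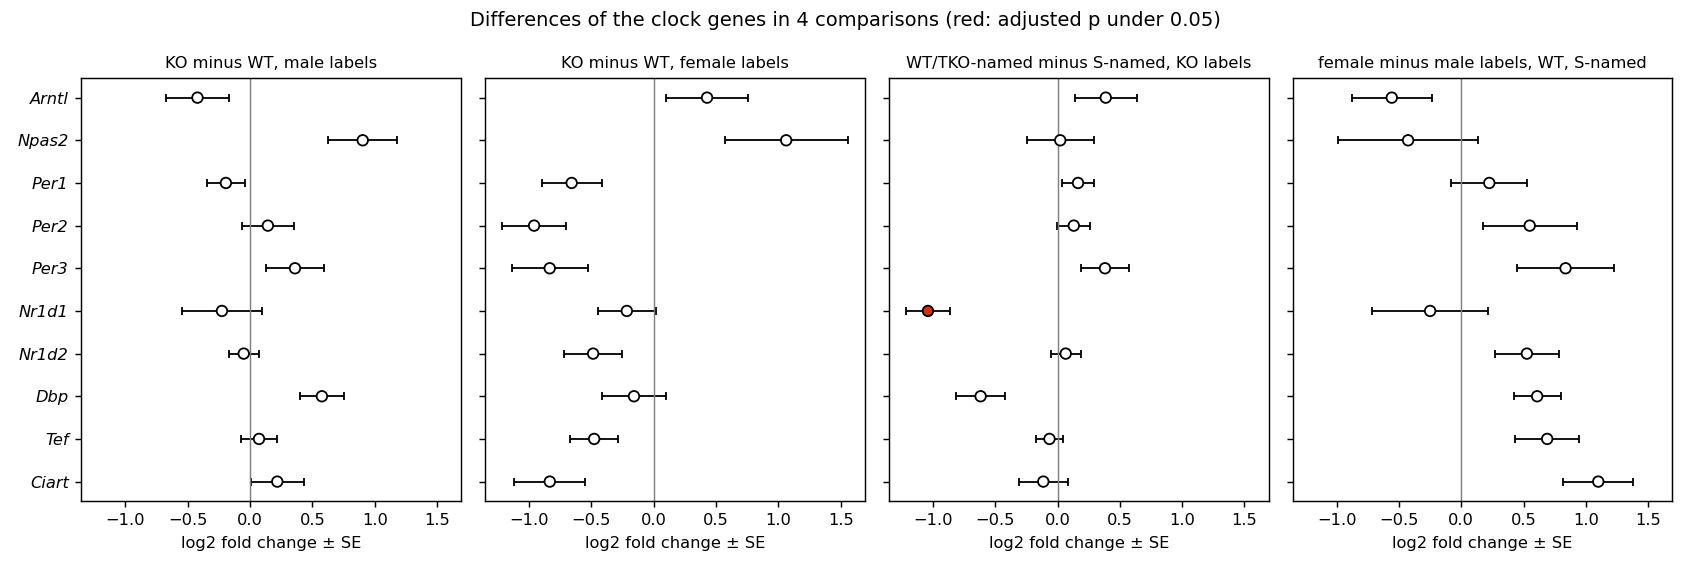
Log2 fold changes of the 10 clock genes (points) with their standard errors (bars) by edgeR in 4 comparisons; red points have an adjusted p under 0.05. Nr1d1 between library sets, at -1.04, was the one red point, and the female comparison had 8 of 10 genes below 0.

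Whether the KO difference depended on the labelled sex was tested as an interaction over all 20 libraries. No clock gene passed (0% of 15187 genes had an adjusted p under 0.05 by edgeR's quasi-likelihood test, 15.6% had an unadjusted p under 0.05 and DESeq2 called 19). Of the 10, 5 had an unadjusted p under 0.05 and DESeq2 and limma called 0. At the thresholds of the study Ciart (-1.16, SE 0.353, adjusted p = 0.224), Per3 (-1.05, SE 0.403, adjusted p = 0.248), Per2 (-0.98, SE 0.344, adjusted p = 0.227) and Dbp (-0.73, SE 0.303, adjusted p = 0.268) were lower in the female than in the male difference. These 4 of 10 stand beside 6.79% of all genes. Without S1, 7.45% of 15120 genes had an adjusted p under 0.05, and of the 10 clock genes Ciart (-1.41, adjusted p = 0.0223), Per2 (-1.19, adjusted p = 0.0448) and Nr1d2 (-0.69, adjusted p = 0.0480) passed. Without S3, in contrast, Per3 was at -0.50 and Per2 at -0.57, and 1 clock gene in place of 4 passed the thresholds of the study. The term uses the same libraries as both comparisons before it and adds no sample of its own. Within the S-named set both labelled sexes compare WT libraries with Xist and KO libraries with Y-linked genes. Of 5 sex-linked genes tested 5 were above 0 in this term (median 8.66) and 2 passed the thresholds of the study. The part of sex-linked expression was not tested. At the thresholds of the study 5 of 5 adipocyte markers (median 6.08) and 3 of 5 atrial markers (median 5.56) were higher in this term and 2 of 4 endothelial markers lower, and their part was not tested.

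Labelled sex was compared within each genotype label. Between the 3 female and 3 male WT libraries of the S set, Ciart had a log2 fold change of 1.10 (SE 0.282, adjusted p = 0.303), Tef of 0.69 (SE 0.257, adjusted p = 0.409) and Dbp of 0.61 (SE 0.189, adjusted p = 0.337). In CPM none of the 3 overlapped between the groups, as held for 7.96% of all genes with female higher, with Ciart at 3.64, 3.78 and 4.31 FPKM in S7 to S9. These 3 passed the thresholds of the study as higher in female, against 4.06% of all genes, and 0 passed adjustment in edgeR, as did 0% of 14191 genes (10.8% at an unadjusted p under 0.05, and 294 called by DESeq2, Ciart among them). S1 to S3 are the same female WT libraries as in the KO comparison, and S7 to S9 had Xist as they did. Markers of other cells differed as well: atrial markers had a median log2 fold change of female against male of -8.34 (4 of 4 tested past the thresholds of the study) and adipocyte markers of -6.82 (4 of 5). Of 9 immediate early genes 5 passed those thresholds as lower in female, with a median of -1.11, and so did 4 of 6 temperature-responsive genes (median -1.04) and 2 of 3 mesothelial markers (median -2.74). The part of these genes in the clock values was not tested. In the 12 libraries labelled KO, Npas2 had a log2 fold change of female against male of -0.66 (SE 0.267, adjusted p = 0.286) and was the one clock gene past the thresholds of the study, which 2.74% of genes passed as lower. Per2 was at -0.42 (SE 0.132, adjusted p = 0.197). The share of genes with an adjusted p under 0.05 was 0.0619%, with 0 of 10 clock genes among them and 2 at an unadjusted p under 0.05, where 14.8% of all genes were. Markers of other cells differed here too, with 4 of 4 atrial markers past the thresholds of the study as lower in female (median log2 fold change -3.03) and 2 of 4 macrophage markers as higher (median 0.45), and their part was not tested. DESeq2 and limma called 0 clock genes. Among the S-named KO libraries both labelled sexes had Y-linked genes, so the labels were no contrast of sex-linked expression there. In those libraries alone 2 clock genes passed the thresholds of the study as lower, beside 822 of 13870 genes. In the WT/TKO-named KO libraries alone 0 clock genes had an unadjusted p under 0.05, beside 1023 of 13769 genes.

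The 1 clock gene called at an adjusted p under 0.05 by edgeR in any of the 6 comparisons was called between the library sets. This difference was tested within the 12 libraries labelled KO, 6 of each set, with labelled sex as covariate, and 11.2% of 14540 genes had an adjusted p under 0.05 (5.39% lower and 5.76% higher in the WT/TKO-named set). Of the 10 clock genes 1 passed, Nr1d1, and 2 passed the thresholds of the study as lower, Nr1d1 and Dbp, against 5.85% of all genes. The median log2 fold change was 0.04 against 0.01 over all genes. A set is known only from the names, and whether it is a sequencing run, a cohort or a day is not given in the sources used here.

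Nr1d1, whose product represses Arntl, was at 12.6 FPKM in S4, 12.2 in S5, 8.99 in S6, 10.7 in S10, 19.8 in S11 and 11.1 in S12. It was at 4.04 in TKO1, 6.00 in TKO2, 7.57 in TKO3, 5.37 in TKO4, 5.29 in TKO5 and 5.82 in TKO6. No library of the second set reached the lowest of the first, a separation found in CPM for 2.85% of all genes as lower and 2.62% as higher. The log2 fold change was -1.04 (SE 0.173, adjusted p = 0.00275 by edgeR), or 0.486 of the level in the S-named libraries. It stayed between -1.13 and -0.91 with each library left out in turn, with adjusted p from 0.00195 to 0.0102. In the libraries labelled female alone it was -0.95 (adjusted p = 0.0166) and in those labelled male alone -1.18 (adjusted p = 0.149). Among the female labels S4 to S6 had Y-linked genes and TKO1 to TKO4 Xist. Set and sex-linked expression cannot be told apart in that subset. In the libraries labelled male WT, which the test did not use, the difference was -1.15 (adjusted p = 0.514), with WT1 and WT2 at 6.50 and 6.36 FPKM and S7, S8 and S9 at 30.4, 6.17 and 13.9, so that S8 overlapped. Thra, which shares bases with Nr1d1, was at 6.05 to 9.25 FPKM in the S-named and 5.58 to 8.08 in the WT/TKO-named KO libraries and overlapped.

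Dbp had a log2 fold change below 0 as well. It ran from 5.99 to 12.8 FPKM (median 9.94) in the S-named KO libraries and from 3.68 to 7.33 (median 5.93) in the WT/TKO-named ones, which overlapped. Its log2 fold change was -0.62 (SE 0.194, adjusted p = 0.0537), just short of the threshold, and it was called by DESeq2 (adjusted p = 0.0197) and limma (adjusted p = 0.0404). It was also called with upper-quartile normalization, no filter, no sex covariate and all 20 libraries. It was not called by edgeR in the female labels alone (-0.45, adjusted p = 0.298), the male labels alone (-0.87, adjusted p = 0.149), the male WT libraries (-0.14, adjusted p = 0.827), without the libraries against their sex label (-0.87, adjusted p = 0.164) or without those high in Myl7 (-0.59, adjusted p = 0.0892). Of the activators Arntl was at 0.39 (SE 0.250, adjusted p = 0.335) and Npas2 at 0.02 (SE 0.267, adjusted p = 0.971), a sign that turned with upper-quartile normalization (-0.02). The period genes were at 0.16 for Per1, 0.13 for Per2 and 0.38 for Per3, with adjusted p from 0.213 to 0.552. Per3 passed in the female libraries alone (0.72, adjusted p = 0.0291), without the libraries high in Myl7 (0.59, adjusted p = 0.0239) and without S12 (0.52, adjusted p = 0.0365). Within the female labels set and sex-linked expression cannot be told apart. Nr1d2, the relative of Nr1d1, was at 0.07 (SE 0.12, adjusted p = 0.765), Tef at -0.06 and Ciart at -0.11.

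Nr1d1 was called lower and Per2 was not, and the ratio of their levels per length separated the sets in KO. In FPKM, the level of Per2 was 1.28 to 2.0 times that of Nr1d1 in the WT/TKO-named KO libraries and 0.605 to 1.19 times in the S-named ones. In the libraries labelled WT the ratio was 1.19 in WT1, 1.9 in WT2, 0.222 in S7, 1.49 in S8, 1.19 in S9, 0.875 in S1, 0.695 in S2 and 2.24 in S3. There the sets overlapped, and S3 had the highest ratio and S7 the lowest of all 20. The ratio is built from values already tested and is given as a description.

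**Figure D5:**
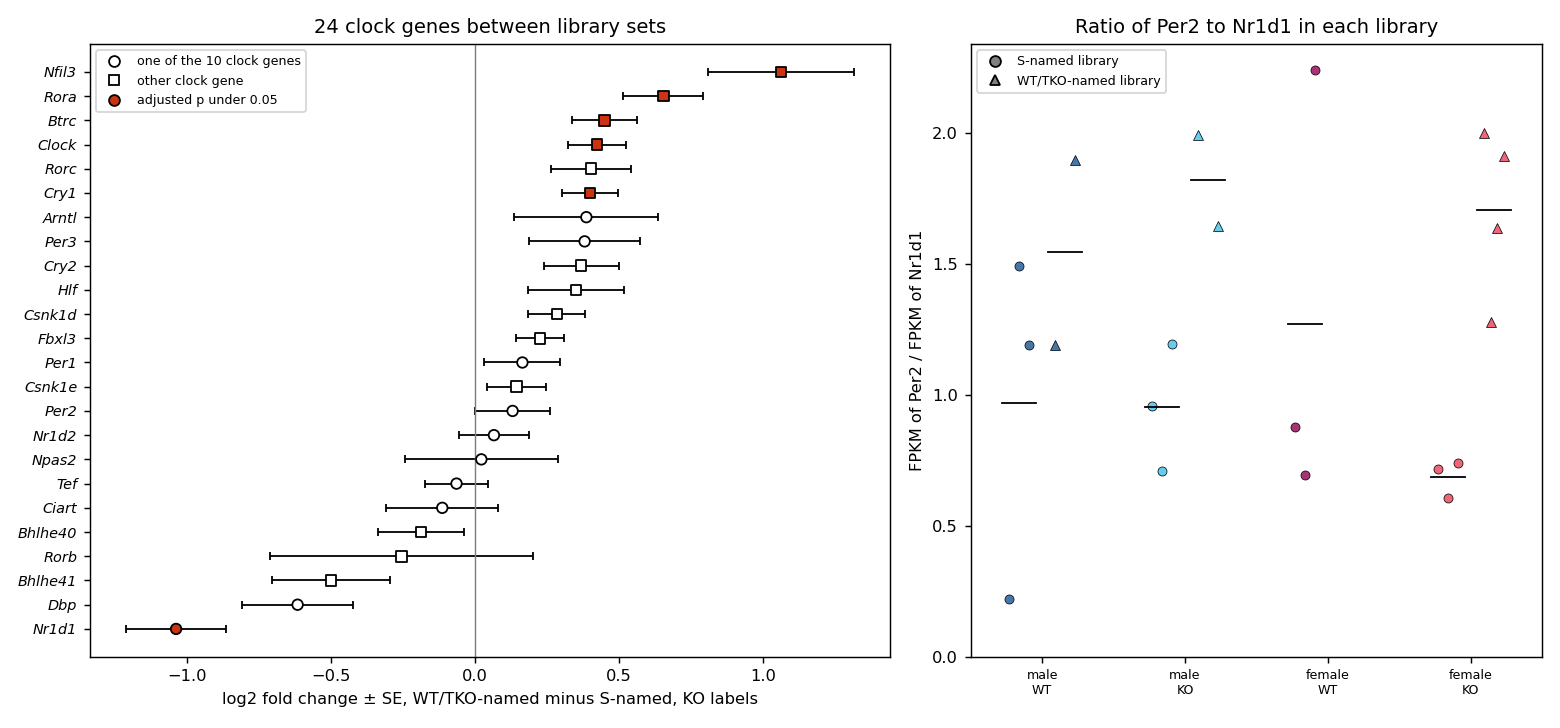
Left: log2 fold changes with standard errors of the 10 clock genes (circles) and 14 other clock genes (squares) between WT/TKO-named and S-named libraries labelled KO, in order of size, red where the adjusted p was under 0.05. Right: FPKM of Per2 over FPKM of Nr1d1 in each library by labelled group, with bars for the mean of 1 set; in KO the triangles, at 1.28 or more, lay above the circles, at 1.19 or less.

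Several other clock genes were higher in the WT/TKO-named KO libraries, where Nr1d1 was lower. Of 15 further clock genes 14 were tested between the sets, 5 were higher in the WT/TKO-named KO libraries at an adjusted p under 0.05 and 0 lower, beside 5.76% of all genes called higher and 5.39% lower. Their median was 0.36. Nfil3, the D-box repressor, had the largest log2 fold change (1.06, SE 0.253, adjusted p = 0.0168) and ran from 5.21 to 19.9 FPKM in the S-named and from 15.7 to 36.9 in the WT/TKO-named libraries. Rora, which activates at the ROREs that Nr1d1 represses, was at 0.65 (SE 0.140, adjusted p = 0.00966). Clock was at 0.42 (SE 0.102, adjusted p = 0.0175), Btrc, a subunit of a ubiquitin ligase for PER proteins, at 0.45 (SE 0.112, adjusted p = 0.0209), and Cry1, the cryptochrome, at 0.40 (SE 0.097, adjusted p = 0.0181). In CPM Cry1 and Btrc did not overlap between the sets, as held for 2.62% of all genes with the WT/TKO-named set higher. Cry1 was at 6.33 to 7.76 FPKM against 7.82 to 11.6. Of the other clock genes 0 passed by edgeR in the male or the female comparison, in the interaction or between labelled sexes.

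Other lists held genes that time of day, temperature, hormones or feeding can move, and the genes named from them were chosen after their values were seen. Each list had 1 gene or none called between the sets, where 11.2% of all genes were called. Of 8 genes taken as outputs of the clock, Klf9 was called between the sets (0.42, adjusted p = 0.0349), with a median of 0.18 over the 8, and 0 were called in the other comparisons. In the female comparison Wee1, a cell cycle kinase driven by E-boxes, had the smallest p of the list (1.04, SE 0.201, adjusted p = 0.0861). It was at 6.63, 3.88 and 5.54 FPKM in S1 to S3 and 13.4, 10.3 and 9.74 in S4 to S6, the opposite order to the Per genes, and at 9.41 to 16.1 in TKO1 to TKO4. Of 6 temperature-responsive genes 1 was lower in the WT/TKO-named KO libraries (Hspa1b, -2.96, adjusted p = 0.0461). Hspa1a, its neighbour, stood at 55.5 and 42.6 FPKM in S9 and S11 against at most 5.38 in the others. Of 6 glucocorticoid-responsive genes tested 1 was higher between the sets (Zbtb16, 0.61, adjusted p = 0.0112). Of 9 immediate early and 5 fasting-responsive genes 0 passed between the sets, with medians of 0.34 and -0.08, and no gene of these 4 lists was called in the other comparisons by edgeR.

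Markers of other cells also differed between the sets in the KO libraries. Summed atrial markers were 15.3 to 7170 CPM in the S-named and 9.67 to 17.8 in the WT/TKO-named libraries, with 3 of 4 tested lower. Of the adipocyte markers all 4 tested were lower, of the macrophage markers 3 of 4 and of the red blood cell markers 2 of 5. Cardiomyocyte markers summed to 39329 to 49055 and 43798 to 51616 CPM, with 1 of 7 higher (Ryr2), and fibroblast, endothelial, smooth muscle and mesothelial lists had 0 called. The part of these cells in the difference of Nr1d1 was not tested. That difference was -0.94 (adjusted p = 0.00214 by edgeR) without S11 and S12, the KO libraries high in Myl7. Xist was in 4 of the 6 WT/TKO-named KO libraries and at 0.503 CPM or less in the S-named ones. Without S4 to S6, the libraries against their sex label, the value was -1.18 (adjusted p = 0.0870).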

How the data were processed

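Heart RNA of 20 libraries was sequenced after poly-A selection (NEBNext Ultra, paired ends). Per the submitters' processing notes, which name HISAT2, HTSeq 0.6.1p2, DESeq2 1.26.0 and GRCm38, the authors deposited raw gene counts. The authors also deposited FPKM per gene in the same table, and both were used as deposited.

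Groups followed the labels. edgeR 4.0.16 (R 4.3.3) quasi-likelihood tests with TMM scaling were fitted to all genes that reached 10 counts in 3 or more fitted libraries, with Benjamini-Hochberg adjustment. KO against WT within labelled sex, their interaction and sex within KO had the library set as covariate, the sets in KO had labelled sex, and sex within WT had none. DESeq2 1.42.0, limma 3.58.1 on log2(FPKM + 1), other scaling, no filter, subsets and each library left out were alternatives; leaving out the libraries with Myl7 over 500 CPM was added after seeing the data. Pairs were tested by permutation (100000 resamples, exact below 10 libraries). Values centred within group and set were permuted without allowance for the means removed. The fits were tested on simulated counts. Within groups all 44 library pairs differed beyond counting noise.

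The genes and lists were chosen with earlier results of these data known. All 10 clock genes, other clock genes with an adjusted p under 0.05, and the genes most like Arntl and Dbp were named; other lists are given by counts.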

Additional observations from a re-analysis of the deposited data

Results flagged for a closer look

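Of 30 sets of values (each of the 10 clock genes in each group of 4 to 10 libraries), 3 had 1 library far from the others by Dixon's test at the 95% level, run on log2 CPM, where chance gives about 1 set in 20. Per1 in the libraries labelled male WT was highest in S7, at 40.7 FPKM against 18.3 to 25.9 in the other 4. S7 was also highest for Nr1d1, at 30.4 FPKM, and had the highest summed adipocyte markers of all libraries, at 859 CPM. Its atrial markers were high as in S9, S11 and S12. Dbp in the same group was highest in S8, at 4.34 log2 CPM against 3.97 to 4.07 in the other 4. In FPKM S8 was not apart, at 6.58 with S9 at 6.22, S7 at 5.93 and WT1 and WT2 at 4.86 and 5.08. Npas2 in the libraries labelled female KO was lowest in TKO2, at 0.167 FPKM against 0.413 to 0.610 in the other 6. Arntl was also lowest of that group in TKO2, at 0.726 FPKM, and Ciart at 2.54 FPKM.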

How the results depend on the processing

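Of 1150 values of the clock genes under the alternatives, 1069 kept their direction and 1038 also their side of the threshold; 81 turned, 45 of them with no library left out singly. The cause of these changes was not tested, except that subsets hold fewer libraries. No paired analysis was possible because the groups share no replicate numbers.

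In male KO against WT, the count at the study thresholds (1) was 2 with upper-quartile scaling, no filter, no set covariate or S-named libraries alone, 0 with limma, WT/TKO-named libraries alone or without libraries against their sex label (which leaves the same contrast), and 1 to 2 with a library left out. In the female comparison the adjusted count (0) was 1 with DESeq2 (2.64% of all genes) and 4 without a filter (4.06% of all genes), and 0 to 5 with a library left out (5 without S1, where 16.8% of all genes passed); the study count (4) was 2 with limma and 2 (without S3 or S6) to 6 with a library left out. For the interaction the ranges were 0 to 3 (3 without S1, where 7.45% of all genes passed) and 1 (without S3) to 6. Between sets in KO the adjusted count (1) was 2 with DESeq2, upper-quartile scaling, no filter, limma, no sex covariate, female labels, all libraries or without libraries high in Myl7 (6.59% to 15.1% of all genes), 0 with male labels, without libraries against their sex label or in male WT (0.00729% to 0.497%), and 1 to 2 with a library left out; the study count (2) was 1 with all libraries, 0 in male WT and 1 to 3 with a library left out. Between sexes in KO the adjusted count (0) was 1 without a filter, and the study count (1) was 0 with limma or WT/TKO-named libraries, 2 with S-named libraries and 0 to 1 with a library left out. Between sexes in WT the adjusted count (0) was 1 with DESeq2 or no filter, and the study count (3) was 1 with limma and 1 to 5 with a library left out.

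These log2 values turned, none of them called. Male: without libraries high in Myl7, Per1 0.0052, Nr1d1 0.13 and Tef -0.042; with WT/TKO-named libraries alone, and also without libraries against their label, Per3 -0.0087 and -0.0079, Tef -0.15 and Ciart -0.19; with S-named libraries Nr1d2 0.11. Interaction: Npas2 0.0019 (DESeq2), 0.12 (no set covariate) and 0.019 (without high Myl7); Nr1d1 -0.47, -0.00060 (S-named) and -0.42. Sets in KO: Npas2 -0.017 (upper quartile), -0.018 (limma), -0.074 (no sex covariate), -0.086 (female) and -0.16 (without high Myl7); Per1 -0.0016 (male) and -0.29 (male WT); Per2 -0.18 (male) and -0.17 (without libraries against their label); Per3 -0.11 in both; Nr1d2 -0.011 (limma), -0.041 and -0.038; Tef 0.021 and Ciart 0.088 (all libraries), 0.23 and 0.56 (male WT). Sex in KO: Arntl -0.10, Per1 0.022, Per3 0.032 and Nr1d2 -0.042 without high Myl7; Per1 0.029 without the set covariate; Arntl -0.18, Per1 0.14 and Per3 0.19 in WT/TKO-named libraries; Nr1d2 -0.070 and Tef -0.029 in S-named ones; Nr1d2 -0.0082 with upper-quartile scaling.

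With 1 library left out, the male values ran from -0.0047 to 0.36 for Per2, -0.44 to 0.17 for Nr1d1, -0.14 to 0.014 for Nr1d2 and -0.033 to 0.15 for Tef. Female values ran from -0.38 to 0.043 for Nr1d1 and -0.35 to 0.034 for Dbp. Interaction values ran from -0.41 to 0.54 for Npas2 and -0.41 to 0.33 for Nr1d1, and Npas2 between sets from -0.097 to 0.17. Between sexes in KO they ran from -0.12 to 0.095 for Per1, -0.23 to 0.022 for Nr1d1, -0.038 to 0.074 for Nr1d2 and -0.013 to 0.081 for Tef. In WT they ran from -0.037 to 0.46 for Per1 and -0.62 to 0.43 for Nr1d1. Npas2 rested on 10 to 63 reads a library.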
